A study of Mus musculus with 16 samples.

Results

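The genes described here are 133 late genes of the mouse. Their mean RNA over 2 clones was at most slightly raised after 2 h of ERK induction and stood higher after 4 h. They were chosen by measured values, from 11924 of the 52636 deposited gene IDs. A gene entered when its mean log2(CPM + 1) over the 4 libraries of a group was at least 0.7 above both 0h and 2h at 4h, and less than 0.5 above 0h at 2h. No lower limit was set at 2h, and the limit of 0.5 held for the mean, not for each clone. CPM is the count scaled per 1e6 of a library's counts outside 8 features that each held over 1% of all counts and outside genes with under 160 counts in total. Symbols beginning Egr, Fos, Spry, Dusp, Etv, Lefty, Ccnd or Hist were to be left out; 0 genes met the thresholds and were left out for that reason. The differences at 0h, 2h and 4h that chose the genes are given below as description and support nothing. Both labelled clones entered the choice with equal weight. The difference between clones is not in the rule, but it comes from the same libraries. Changes were wider in clone 4: over all 11924 genes, 817 stood at least 0.7 above 0h at 4h in clone 4 and 228 in clone 8. A mean over the clones therefore favours genes that stood higher in clone 4.

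All libraries came from the mouse line CRAFR26, embryonic stem cells targeted with an inducible c-RAF kinase construct and differentiated towards the pluripotent state labelled RSC. The usual medium held IWP2, LIF and the MEK inhibitor PD03; in all groups PD03 was replaced for 48 h by 250 nM of the FGF receptor inhibitor PD17. The 0h cells had no inducer, the 2h and 4h cells had 250 nM 4-hydroxytamoxifen (2 h or 4 h), and rev cells were taken after 4 h of it followed by 2 h with a MEK inhibitor whose dose the labels do not give. Each group held 4 libraries of ribosome-depleted total RNA, 2 from clone 4 and 2 from clone 8. No group kept for 6 h without the MEK inhibitor was analysed here, so the inhibitor and 2 h of further culture cannot be told apart at rev. No label says whether libraries 1 and 2 of a clone came from separate cultures, so p-values measure the spread between these libraries, which may be technical. With 2 clones, a clone difference describes these clones.

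The kinase c-RAF phosphorylates MEK, which phosphorylates and activates ERK. ERK acts first on factors already present in the cell, so that immediate-early genes and feedback inhibitors such as Spry4 and Dusp6 are transcribed within minutes. Delayed genes follow, many of them needing newly made proteins such as AP-1 or EGR factors. In pluripotent mouse cells ERK signalling is known for driving the exit from the naive state.

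Library totals ran from 4.31 to 10.4 M counts, and 1.29 to 5.41 M counts lay outside the 8 abundant features and the rare genes. These features took 46.7% to 78.9% of a library. The rev library 1 of clone 8 stood apart with the highest share and the fewest remaining counts. Across libraries 3 counts, taken as the floor for counting error only, equalled 0.555 to 2.33 CPM. Over the 500 most variable genes the first principal component, with 50.97% of the variance, separated the clones. On the third, with 8.57%, all 0h and 4h libraries were positive and all 2h and rev libraries negative; the part of this split in the differences of 4h from 2h and from rev was not tested. All 8 pluripotency markers averaged above 10 CPM, with a summed level of 2521 to 4338 CPM in each library. Fibroblast or feeder markers summed to 1.6 to 9.33 CPM and Twist2 was at 0 in all libraries. The 8 mesoderm markers, none of them a late gene, summed to 11.01 to 15.6 CPM at 0h, 20.7 to 33.5 at 2h, 22.7 to 49.6 at 4h and 17.07 to 22.8 at rev, so that every induced or rev library lay above the 0h libraries. Their part in the late pattern was not tested. The summed markers of primitive endoderm, trophoblast and neural cells overlapped between 0h and 4h.

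Printed here are the 5 promoter windows of late genes, of 133, that hold the letters GCGTGGGCG, a sequence EGR factors bind. They were picked for these letters because Egr1 RNA was high at 2h, and they do not stand for the other late genes. Whether EGR factors act on them was not tested. The windows run from 250 bases before to 50 bases after a start site, 5′ to 3′, from RefSeq on GRCm38.p6, and capitals mark the searched motifs on either strand.
Tgfb1, chr7:25686752-25687051, plus strand: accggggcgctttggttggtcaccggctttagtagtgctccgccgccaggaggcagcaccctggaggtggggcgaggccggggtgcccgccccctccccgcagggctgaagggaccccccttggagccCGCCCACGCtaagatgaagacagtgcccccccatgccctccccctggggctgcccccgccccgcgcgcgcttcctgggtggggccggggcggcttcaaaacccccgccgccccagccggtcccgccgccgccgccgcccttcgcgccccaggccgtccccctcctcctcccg
Shank3, chr15:89499358-89499657, plus strand: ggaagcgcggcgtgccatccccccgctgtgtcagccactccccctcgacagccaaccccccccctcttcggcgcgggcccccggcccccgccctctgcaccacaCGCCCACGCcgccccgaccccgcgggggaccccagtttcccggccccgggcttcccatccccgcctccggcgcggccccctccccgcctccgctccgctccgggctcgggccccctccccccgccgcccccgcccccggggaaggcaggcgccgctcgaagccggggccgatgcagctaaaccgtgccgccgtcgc
Slc29a1, chr17:45595815-45596114, minus strand: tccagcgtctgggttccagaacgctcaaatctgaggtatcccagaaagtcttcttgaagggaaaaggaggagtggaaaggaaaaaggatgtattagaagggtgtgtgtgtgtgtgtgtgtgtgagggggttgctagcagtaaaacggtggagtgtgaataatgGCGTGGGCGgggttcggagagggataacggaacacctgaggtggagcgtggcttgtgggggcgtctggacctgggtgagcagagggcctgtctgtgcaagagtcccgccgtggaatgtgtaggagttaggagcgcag
Polm, chr11:5837967-5838266, minus strand: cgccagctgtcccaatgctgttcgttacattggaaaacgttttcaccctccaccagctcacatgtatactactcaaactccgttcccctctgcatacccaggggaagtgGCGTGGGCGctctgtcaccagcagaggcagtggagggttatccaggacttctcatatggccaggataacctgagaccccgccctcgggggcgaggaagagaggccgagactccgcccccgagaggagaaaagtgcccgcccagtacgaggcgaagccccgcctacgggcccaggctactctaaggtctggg
Fetub, chr16:22919972-22920271, plus strand: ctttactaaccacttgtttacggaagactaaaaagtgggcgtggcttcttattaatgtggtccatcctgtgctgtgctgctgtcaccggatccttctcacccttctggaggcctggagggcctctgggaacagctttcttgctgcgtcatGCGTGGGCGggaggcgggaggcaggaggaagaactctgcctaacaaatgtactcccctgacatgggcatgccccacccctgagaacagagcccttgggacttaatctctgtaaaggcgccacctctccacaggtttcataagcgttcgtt
The EGR letters began 122 bases before the start site in Tgfb1, 146 in Shank3, 87 in Slc29a1, 141 in Polm and 100 in Fetub. RefSeq had 133 promoter windows for 92 of the late genes, and 5 of them (3.76%) held these letters. The share was 0.612% of all 32851 promoter windows and 1.24% of the 11594 windows of genes that the rule could choose from. The AP-1 letters TGACTCA stood in 5.26% of late windows, against 5.2% of all and 3.4% of the windows of genes past both count drops. For the ETS letters CCGGAAG the shares were 3.76%, 8.86% and 18.2%, and for the E-box CACGTG they were 7.52%, 7.15% and 10.4%. The cyclic AMP response element TGACGTCA and the CArG box, the binding motif of serum response factor, each stood in 1 late window (0.752%), in Shisa5 and Lef1. The shares of the first were 1.79% of all windows and 3.15% of the expressed ones, and those of the second 1.63% and 1.24%. A match describes letters in a window, and windows of one gene can overlap. No test was made of these shares.

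The late pattern was uneven between the clones. In clone 4 the median late gene stood 1.82 log2 units above 0h at 4h, with a range of 0.34 to 4.73, and 132 of 133 genes stood at least 0.7 above. In clone 8 the median was 0.36, with a range of -0.95 to 1.44, and 35 genes stood at least 0.7 above. At 2h the medians against 0h were 0.07 in clone 4 and -0.00061 in clone 8, with ranges of -1.33 to 1.37 and -1.88 to 1.23. Over all 11924 genes the median at 4h was -0.09 in clone 4 and -0.05 in clone 8, and the farthest from 0 in either clone was -0.10, at 2h in clone 4. Both 4h libraries lay above both 0h libraries for 131 late genes in clone 4 (22.3% of all genes) and for 74 in clone 8 (21.1%). Both 4h libraries lay above both 2h libraries for 131 in clone 4 (33.4% of all genes) and for 81 in clone 8 (26.6%). With both clones in 1 model, 103 of the 129 late genes tested were called higher at 4h than at 0h by edgeR's quasi-likelihood test (adjusted p under 0.05; 7.35% of all tested genes were called). The count at 4h against 2h was 95 of 129 (5.78% of all tested genes). Without the 4h library 1 of clone 4 the counts were 59 and 51, and without the 2h library 2 of clone 4 the second was 60. Both counts restate the rule, and nothing is read from them. The 4 members below that model's count filter were Col6a5, Samd4, Cyp26a1 and Arap3.

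**Figure D1:**
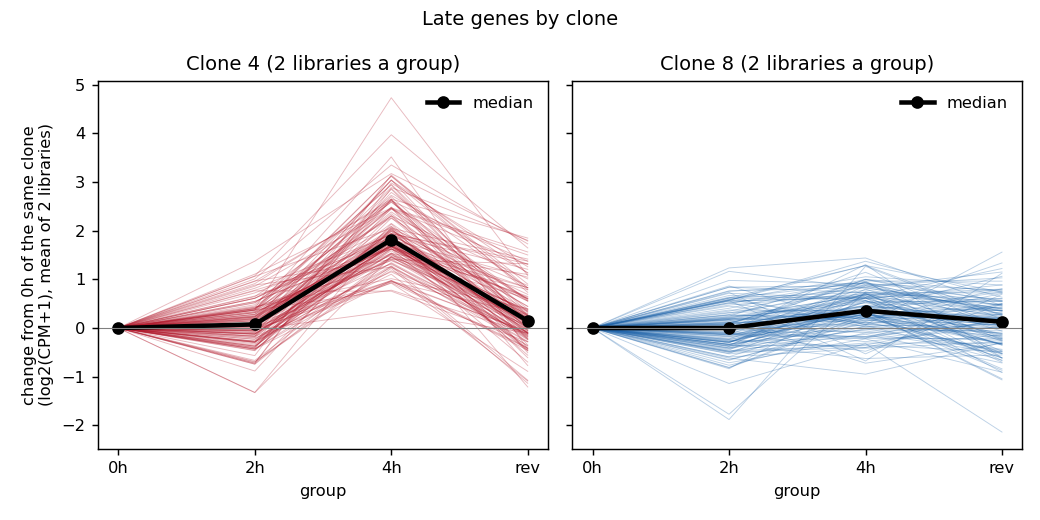
Change of each of the 133 late genes from 0h of the same clone on log2(CPM + 1), as a mean of 2 libraries, at 2h, 4h and rev; thin lines are genes and the thick black line is their median. At 4h the median was 1.82 in clone 4 and 0.36 in clone 8, and at rev it was 0.15 and 0.13.

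The difference between the clones was tested by itself, as the change from 0h to 4h in clone 8 minus that in clone 4, in a model with a level for each clone in each group (8 levels). It is called the clone difference below and is in log2 units of the fitted counts. For 82 of 133 late genes the clone difference was below 0 at an adjusted p under 0.05, against 3.48% of all 13494 genes tested. The test shares the 0h and 4h libraries with the rule, which favours genes high in clone 4, so the count is a description of the chosen genes and is not read against the share over all genes. A larger change in clone 8 was called for 0 late genes (2.09% of all genes), and 0 stood higher in clone 8 at an unadjusted p under 0.05; DESeq2 also called 0. The median clone difference was -1.56 over late genes and 0.04 over all genes. Against 2h in place of 0h, the change was smaller in clone 8 for 87 late genes (6.58% of all genes) and larger for 5. The 5 were Tnfrsf25, Dnmt3l, Gm22513, Rny1 and Lef1, and the share of all genes with a larger change is not given here. Leaving out the 4h library 1 of clone 4 brought the count of 82 to 52.

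At 4h itself, both clone 4 libraries lay above both clone 8 libraries for 118 late genes (26.8% of all genes). The opposite order held for 3, Itpk1, Lama4 and Pvt1 (32.8% of all genes). The rule used these libraries and those at 0h, and it favours genes high in clone 4. The orders at 4h and 0h therefore describe the chosen genes. Both clone 4 libraries lay above both clone 8 libraries at 0h for 33 late genes (26.5% of all genes), and below them for 45 (27.3%). The test called 25 late genes different at 0h, 14 higher and 11 lower in clone 8 (10.9% of all genes). The change from 0h to 2h differed between clones for 15 late genes, 5 higher and 10 lower in clone 8 (7.31% of all genes). Leaving out the 0h library 2 of clone 4 brought these counts to 14 and 8, and leaving out the 0h library 2 of clone 8 brought the first to 15.

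Several genes of the pathway moved with the clones. At 4h the feedback inhibitor Spry4 stood at 565.5 to 620.4 CPM in clone 4 and 142 to 146 in clone 8, and the ERK phosphatase gene Dusp6 at 192.5 to 207 and 50.4 to 60.7. At 2h Dusp6 had stood at 86.3 to 87.2 CPM in clone 4 and 74.01 to 82.5 in clone 8. Egr1 stood at 1180 to 1409 CPM at 2h in clone 4 and 446 to 476 in clone 8, and at 590.4 to 755 and 79.2 to 81.99 at 4h. Esr1 reads, from the gene of the estrogen receptor whose ligand domain gives such constructs their tamoxifen response, stood at 29.2 to 32.8 CPM in clone 4 and 8.997 to 11.6 in clone 8 at 0h. Whether Esr1 reads came from the construct or from the cell's own gene cannot be told apart in these counts. The part of these differences in the clone difference of the late genes was not tested.

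**Figure D2:**
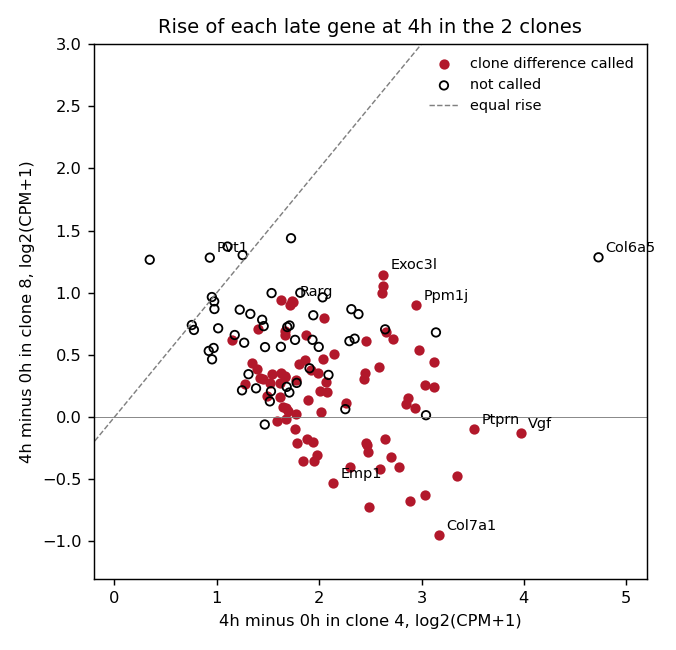
Difference of 4h from 0h on log2(CPM + 1) for each of the 133 late genes in clone 4 (horizontal axis) and clone 8 (vertical axis), as means of 2 libraries; filled points are the 82 genes called for the clone difference. All but 5 genes lie below the dashed line of equal change.

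Of the 8 late genes with the largest difference of 4h from 0h among well-counted named genes, 3 (Zfp423, Jade2 and Hmga2) encode proteins that act on transcription or chromatin. Zfp423 (chr8:87661810-87959595, minus strand, here and below by GENCODE M21 on GRCm38) encodes a zinc finger factor that works with SMAD proteins. In clone 4 Zfp423 had 14.3 and 16.4 CPM at 0h, 13.4 and 9.53 at 2h, 116 and 85.99 at 4h and 15.8 and 10.5 at rev. In clone 8 Zfp423 had 13.3 and 11.7 CPM at 0h, 19.96 and 18.5 at 2h, 24.3 and 29.996 at 4h and 25.6 and 22.3 at rev. The 4h libraries of clone 4 stood far above all others, those of clone 8 lay above its 0h and 2h libraries, and only clone 4 came back to its 0h range at rev. Between the clones the difference was -1.66 ± 0.32 (SE; edgeR adjusted p = 0.000851).

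Jade2 (chr11:51813455-51857653, minus strand) encodes a scaffold of histone acetyltransferase complexes. In clone 4 Jade2 had 7.71 and 9.84 CPM at 0h, 4.68 and 5.11 at 2h, 73.3 and 78.05 at 4h and 28.99 and 17.01 at rev. In clone 8 it had 12.8 and 12.5 CPM at 0h, 11.1 and 7.77 at 2h, 17.7 and 19.997 at 4h and 19.4 and 18.6 at rev. At rev the clone 4 libraries were still above their 0h values, and in clone 8 the 4h and rev values overlapped. The clone difference of Jade2 was -2.52 ± 0.37 (SE; edgeR adjusted p = 1.5e-05).

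Hmga2 (chr10:120361275-120476469, minus strand) encodes an architectural chromatin protein of embryonic and tumour cells. In clone 4 Hmga2 had 7.16 and 5.33 CPM at 0h, 5.35 and 6.13 at 2h, 72.6 and 26.5 at 4h and 7.32 and 5.003 at rev. In clone 8 Hmga2 had 2.56 and 1.56 CPM at 0h, 3.23 and 3.15 at 2h, 2.67 and 5.6 at 4h and 3.1 and 4.12 at rev. The 4h libraries of clone 4 were the highest and were far apart from each other. Its clone difference did not pass the threshold, at -2.27 ± 0.81 (SE; edgeR adjusted p = 0.107).

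Tgfb1 (chr7:25687002-25705077, plus strand) encodes a secreted cytokine and is a gene whose promoter is printed above. In clone 4 Tgfb1 had 5.51 and 5.33 CPM at 0h, 11.4 and 11.6 at 2h, 44.9 and 32.4 at 4h and 15.2 and 16.01 at rev. In clone 8 Tgfb1 had 6.81 and 5.09 CPM at 0h, 6.65 and 5.37 at 2h, 10.2 and 15.998 at 4h and 10.9 and 7.56 at rev. It was among the late genes nearest to the 2h limit, at 0.488 above 0h on log2(CPM + 1), and clone 4 already stood above 0h at 2h. At rev clone 4 stayed above its 0h values, and the clone difference was -1.82 ± 0.46 (SE; edgeR adjusted p = 0.0118).

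Ppm1j (chr3:104781056-104786018, plus strand) encodes a serine/threonine phosphatase. In clone 4 Ppm1j had 9.91 and 5.33 CPM at 0h, 10.7 and 9.19 at 2h, 66.4 and 60.2 at 4h and 11.7 and 6.75 at rev. In clone 8 Ppm1j had 2.84 and 4.69 CPM at 0h, 4.03 and 2.59 at 2h, 9.9 and 5.999 at 4h and 5.43 and 4.81 at rev. In both clones the 4h libraries were the highest, and the rev libraries lay within or near the 0h to 2h range. Its clone difference was -1.94 ± 0.53 (SE; edgeR adjusted p = 0.0236).

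Exoc3l (chr8:105289924-105296101, minus strand) encodes a protein related to a subunit of the exocyst, the complex that tethers secretory vesicles to the plasma membrane. In clone 4 Exoc3l had 9.36 and 9.02 CPM at 0h, 9.03 and 7.15 at 2h, 61.9 and 62.2 at 4h and 7.91 and 4.75 at rev. In clone 8 Exoc3l had 9.65 and 8.21 CPM at 0h, 11.7 and 9.81 at 2h, 20.6 and 21.2 at 4h and 10.1 and 8.24 at rev. Each clone separated 4h from every other group without overlap, by more in clone 4, and the clone difference was -1.55 ± 0.35 (SE; edgeR adjusted p = 0.00451).

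Klk10 (chr7:43781035-43785410, plus strand) encodes a secreted peptidase of the kallikrein family. In clone 4 Klk10 had 2.75 and 7.38 CPM at 0h, 6.02 and 4.09 at 2h, 41.5 and 19.2 at 4h and 9.66 and 5.75 at rev. In clone 8 Klk10 had 4.54 and 3.91 CPM at 0h, 6.65 and 6.29 at 2h, 7.76 and 8.8 at 4h and 11.6 and 9.62 at rev. The clone 8 values were highest at rev, and the clone difference did not pass the threshold, at -1.66 ± 0.59 (SE; edgeR adjusted p = 0.107).

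Ptprn (chr1:75247027-75264502, minus strand) encodes a transmembrane protein of dense-core secretory vesicles in neuroendocrine cells. In clone 4 Ptprn had 7.71 and 9.02 CPM at 0h, 12.04 and 10.2 at 2h, 135 and 82.7 at 4h and 5.86 and 6.004 at rev. In clone 8 Ptprn had 4.83 and 4.69 CPM at 0h, 3.63 and 1.48 at 2h, 5.88 and 3.2 at 4h and 5.43 and 4.81 at rev. Only clone 4 set 4h apart, and in clone 8 the groups overlapped. The clone difference was -3.72 ± 0.55 (SE; edgeR adjusted p = 1.68e-05).

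**Figure D3:**
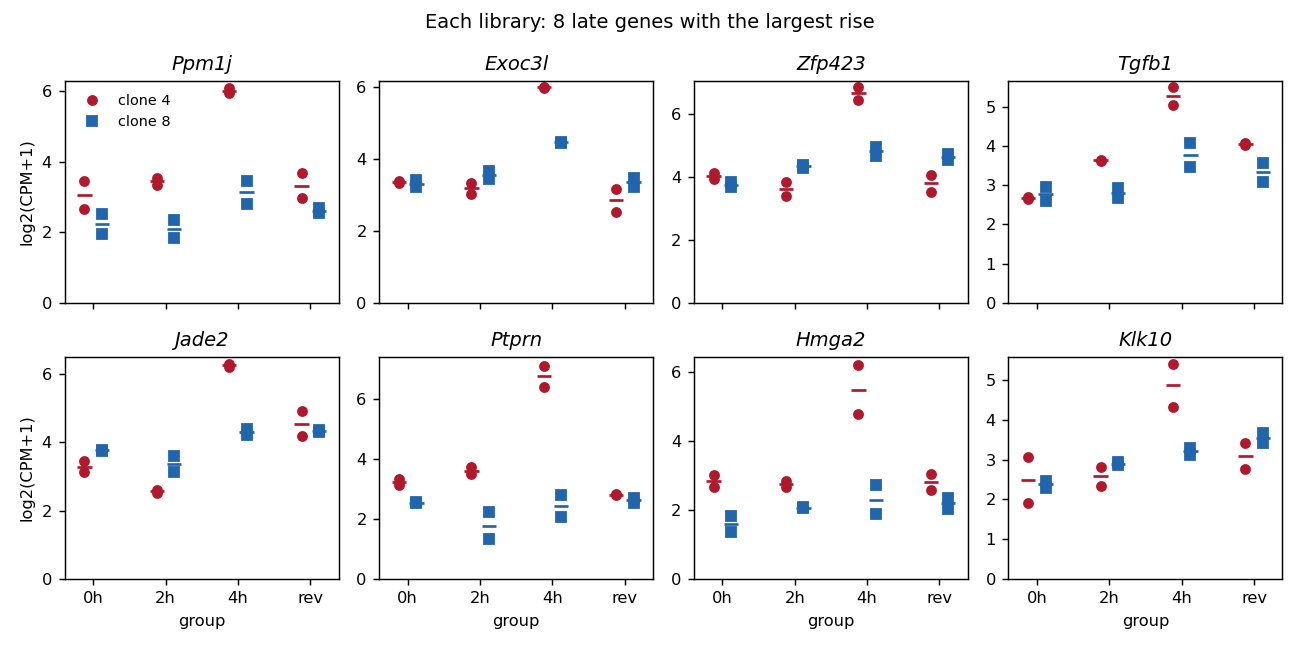
The 16 libraries for the 8 late genes with the largest difference of 4h from 0h, on log2(CPM + 1) by group; circles are clone 4, squares are clone 8 and short lines are means of 2 libraries. For each gene the 4h libraries of clone 4 lie above all other libraries.

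Col6a5, a collagen VI chain gene, had a larger difference of 4h from 0h than these, 3.01 on log2(CPM + 1), but few counts. In clone 4 Col6a5 had 0.551 and 0 CPM at 0h, 0.334 and 1.02 at 2h, 41.8 and 24.5 at 4h and 1.76 and 1.5 at rev. In clone 8 it had 0.568 and 0.391 CPM at 0h, 0.806 and 1.67 at 2h, 2.41 and 2.8 at 4h and 1.55 and 1.37 at rev. The 0h counts were at most 1 in clone 4 and 2 in clone 8, under the floor of 3, so no fold against 0h is given. The clone difference did not pass the threshold (edgeR adjusted p = 0.0888).

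Among genes with at least 50 mean counts at 4h, the largest clone differences belonged to genes that in clone 8 did not stand higher at 4h. Col7a1 (chr9:108953586-108984875, plus strand), the collagen of anchoring fibrils under epithelia, had 7.71 and 3.28 CPM at 0h, 15.7 and 13.96 at 2h, 63.9 and 45.6 at 4h and 16.7 and 24.02 at rev in clone 4. In clone 8 Col7a1 had 7.67 and 8.21 CPM at 0h, 4.84 and 4.81 at 2h, 6.15 and 1.9997 at 4h and 5.43 and 7.21 at rev. Clone 4 already stood above 0h at 2h and was still above it at rev, whereas in clone 8 the induced values lay below those at 0h. Its clone difference was -4.26 ± 0.52 (SE; edgeR adjusted p = 7.26e-07), and at 2h it was already -2.26 ± 0.52 (SE; edgeR adjusted p = 0.00513).

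Heg1 (chr16:33684370-33771576, plus strand), a transmembrane protein of endothelial and heart development, had 12.1 and 11.5 CPM at 0h, 11.4 and 14.3 at 2h, 94.01 and 52.9 at 4h and 12.9 and 15.8 at rev in clone 4. In clone 8 Heg1 had 19.6 and 12.1 CPM at 0h, 16.5 and 18.3 at 2h, 8.02 and 9.999 at 4h and 13.96 and 10.6 at rev. The clones moved apart at 4h alone, and the clone difference was -3.58 ± 0.40 (SE; edgeR adjusted p = 1.97e-07).

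Synj2 (chr17:5941280-6044290, plus strand), an inositol phosphatase of membrane traffic, had 6.06 and 3.69 CPM at 0h, 4.01 and 3.4 at 2h, 47.01 and 31.7 at 4h and 10.2 and 8.26 at rev in clone 4. In clone 8 Synj2 had 6.25 and 3.52 CPM at 0h, 4.44 and 2.04 at 2h, 4.55 and 2.4 at 4h and 4.65 and 3.78 at rev. In clone 8 no group stood apart from the others, and the clone difference was -3.57 ± 0.58 (SE; edgeR adjusted p = 8.15e-05).

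Nptxr (chr15:79786351-79804766, minus strand), the neuronal pentraxin receptor, had 8.26 and 5.33 CPM at 0h, 7.69 and 10.6 at 2h, 58.1 and 35.1 at 4h and 7.03 and 11.5 at rev in clone 4. In clone 8 Nptxr had 15.3 and 14.9 CPM at 0h, 8.67 and 10.7 at 2h, 11.8 and 10.4 at 4h and 12.4 and 12.02 at rev. Clone 8 started at the higher level, and its 4h libraries lay below its 0h libraries. The clone difference of Nptxr was -3.31 ± 0.41 (SE; edgeR adjusted p = 1.03e-06).

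Fam167a (chr14:63436394-63465498, plus strand) had 6.61 and 7.38 CPM at 0h, 7.69 and 5.45 at 2h, 57.4 and 44.98 at 4h and 8.2 and 7.76 at rev in clone 4. In clone 8 Fam167a had 6.25 and 6.26 CPM at 0h, 2.02 and 2.59 at 2h, 4.81 and 4.8 at 4h and 0 and 1.72 at rev. The value of 0 is from the shallow rev library of clone 8, where a count of 0 allows up to 2.33 CPM. Its clone difference was -3.26 ± 0.47 (SE; edgeR adjusted p = 1.25e-05).

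Vgf (chr5:137026392-137033351, plus strand), a neurosecretory precursor protein, had 1.1 and 1.64 CPM at 0h, 5.02 and 3.06 at 2h, 49.8 and 25.8 at 4h and 5.56 and 7.25 at rev in clone 4. In clone 8 Vgf had 1.42 and 2.35 CPM at 0h, 1.41 and 0.74 at 2h, 1.6 and 1.6 at 4h and 0.776 and 0.687 at rev. Clone 8 held at most 7 counts in any library. The clone difference was -4.96 ± 0.92 (SE; edgeR adjusted p = 0.000475); it rests on few counts in clone 8 and its size depends on the fit.

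Among the same well-counted genes, those with the smallest called clone differences stood higher at 4h in each clone. Utf1 (chr7:139943789-139945112, plus strand), a chromatin-associated protein of pluripotent cells and a marker used above, had 72.7 and 73.01 CPM at 0h, 133 and 118 at 2h, 217 and 237 at 4h and 107 and 82.1 at rev in clone 4. In clone 8 Utf1 had 108 and 114 CPM at 0h, 123 and 113 at 2h, 205 and 223 at 4h and 129 and 101 at rev. The 4h levels of the clones overlapped. The clones differed in starting level, and the clone difference was -0.69 ± 0.18 (SE; edgeR adjusted p = 0.0167).

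Rarg (chr15:102234938-102257517, minus strand), the retinoic acid receptor gamma, had 97.5 and 116 CPM at 0h, 87.3 and 70.1 at 2h, 362 and 349 at 4h and 116 and 109 at rev in clone 4. In clone 8 Rarg had 87.5 and 96.6 CPM at 0h, 138 and 144 at 2h, 171 and 181 at 4h and 147 and 127 at rev. Clone 8 already stood above 0h at 2h, where the difference between clones had the opposite sign, 1.02 ± 0.17 (SE; edgeR adjusted p = 0.000185). At 4h the clone difference was -0.80 ± 0.17 (SE; edgeR adjusted p = 0.00166).

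Itpk1 (chr12:102568582-102704930, minus strand), an inositol phosphate kinase, had 71.6 and 57.01 CPM at 0h, 60.2 and 61.6 at 2h, 135 and 151 at 4h and 63.8 and 53.8 at rev in clone 4. In clone 8 Itpk1 had 122 and 118 CPM at 0h, 136 and 135 at 2h, 183 and 186 at 4h and 139 and 149 at rev. Clone 8 was higher in every group, and the clone difference was -0.55 ± 0.17 (SE; edgeR adjusted p = 0.0437).

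Dnmt3l (chr10:78041947-78063622, plus strand), the cofactor of the de novo DNA methyltransferases, had 54.5 and 78.8 CPM at 0h, 118 and 141 at 2h, 190.4 and 161 at 4h and 154 and 177 at rev in clone 4. In clone 8 Dnmt3l had 72.4 and 63.8 CPM at 0h, 60.9 and 50.1 at 2h, 119 and 105 at 4h and 43.4 and 54.3 at rev. Clone 4 climbed at 2h and stayed high at rev, while clone 8 stood higher at 4h alone. The clone difference was -0.68 ± 0.21 (SE; edgeR adjusted p = 0.0467). The calls of Itpk1 and Dnmt3l were lost with DESeq2 and, like that of Utf1, with some libraries left out.

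Genes chosen in 1 clone alone were then measured in the other, whose libraries this choice did not use. The same thresholds applied to clone 4 alone chose 352 genes and to clone 8 alone 31. Of the 352, 333 were tested in clone 8, and 43 were called higher there at 4h than at 0h (3.5% of all tested genes in clone 8). At 4h against 2h the count was 42 (4.58%). Called lower at 4h were 3 against 0h (2.78% of all tested genes) and 11 against 2h (5.07%). The median differences over the 333 genes were 0.19 and 0.13 log2 units. Of the 31 genes chosen in clone 8, 30 were tested in clone 4: 18 were called higher at 4h than at 0h (10.4%) and 16 higher than at 2h (12.5%), with medians of 1.14 and 0.78. For genes chosen in clone 4, leaving out 0h library 1 or 2 of clone 8 brought the count of 43 to 22 or 28, and leaving out 2h library 2 or 4h library 1 brought 42 to 15 or 19. Shares over all tested genes without these libraries are not given here.

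**Figure D4:**
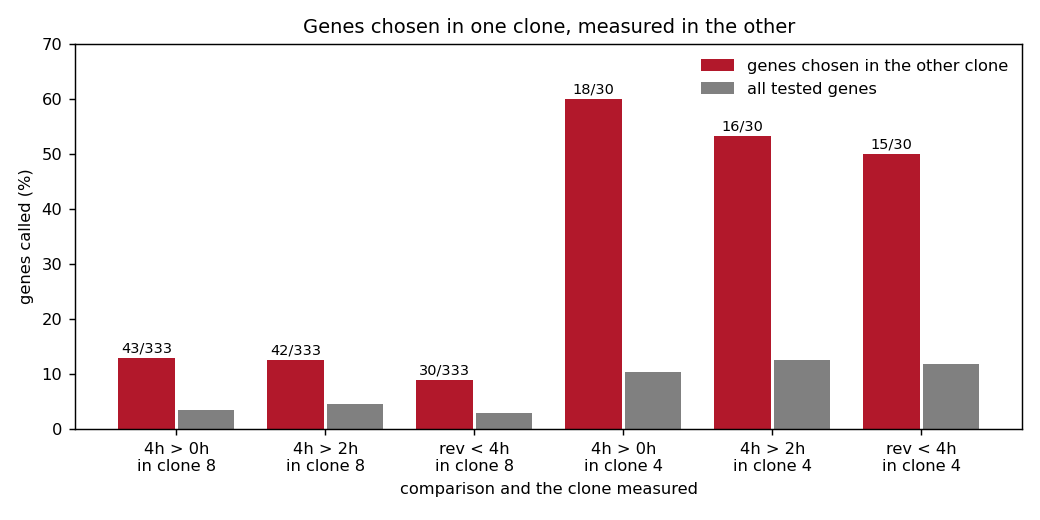
Percentage of genes called in the clone that did not choose them (red bars, with counts above) and of all genes tested in that clone (grey bars), for 4h above 0h, 4h above 2h and rev below 4h. Genes chosen in clone 4 were called in 12.9%, 12.6% and 9.01% in clone 8, and genes chosen in clone 8 in 18, 16 and 15 of 30 in clone 4.

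Both differences, 4h above 0h and 4h above 2h, were called in the other clone for 17 of 333 tested genes chosen in clone 4. For genes chosen in clone 8 the count was 14 of 30. The share of all tested genes called for both is not given here, so nothing is read from these counts. Exoc3l, Gpr4, Myrf and D930048N14Rik were among both. Gpr4 encodes a proton-sensing receptor and Myrf a membrane-bound transcription factor known from oligodendrocytes. In clone 4 Gpr4 had 7.71 and 12.3 CPM at 0h, 7.69 and 7.49 at 2h, 40.4 and 22.5 at 4h and 12.01 and 12.3 at rev. In clone 8 Gpr4 had 3.69 and 3.52 CPM at 0h, 3.23 and 4.63 at 2h, 8.83 and 7.6 at 4h and 5.43 and 5.15 at rev. Myrf had 28.1 and 40.6 CPM at 0h, 25.4 and 16.3 at 2h, 84.7 and 76.1 at 4h and 20.8 and 10.5 at rev in clone 4. In clone 8 Myrf had 7.95 and 7.82 CPM at 0h, 6.65 and 5.74 at 2h, 13.4 and 17.2 at 4h and 11.6 and 8.24 at rev. Gpr4 and Myrf started at different levels in the clones, higher in clone 4, and stood above their 0h and 2h values at 4h in each. The 5 genes that the thresholds chose in each clone separately were Exoc3l, Gpr4, Myrf, D930048N14Rik and Ppm1j. Of the 133 late genes, 104 were also chosen in clone 4 alone, 12 in clone 8 alone and 22 in neither.

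At rev, after 2 h with the MEK inhibitor, the median late gene stood 0.15 above 0h in clone 4 and 0.13 in clone 8 on log2(CPM + 1). Of 133 late genes, 30 stood at least 0.7 above 0h in clone 4 and 19 in clone 8. Over all 11924 genes the numbers were 590 and 403. At 4h only 35 late genes had stood that far above 0h in clone 8. The comparison of rev with 4h shares the 4h libraries with the rule, which favours falls. Of 129 late genes tested over both clones, 81 were called lower at rev than at 4h (5.1% of all tested genes), and the median change was -1.12 against 0.0026 over all genes. Leaving out the 4h library 1 of clone 4 gave 44 calls, and leaving out rev library 1 or 2 of clone 4 gave 50 or 46. Both rev libraries lay below both 4h libraries for 128 late genes in clone 4 (31.5% of all genes) and 65 in clone 8 (24.1%). The median change on log2(CPM + 1) was -1.63 in clone 4 and -0.29 in clone 8. The change from 4h to rev differed between clones for 80 late genes (12.7% of all genes). It was less negative in clone 8 for 79 of them and more negative for Dnmt3l, at -1.07 ± 0.21 (SE; edgeR adjusted p = 0.000464). These tests share the 4h libraries with the clone difference above.

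In the clone that had not chosen the genes, 30 of 333 genes chosen in clone 4 were called lower at rev than at 4h in clone 8 (3.05% of all tested genes) and 15 higher (3.37%). Leaving out 4h library 1 or 2 or rev library 2 of clone 8 brought the 30 to 16, 17 or 12. The matching shares over all tested genes are not given here. Of the 30 genes chosen in clone 8, 15 were called lower in clone 4 (11.8%).

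Against 0h, whose libraries the rule also used, 6 of 129 late genes were called higher at rev (5.51% of all tested genes). They were Tgfb1, Krtdap, Dab1, Slc30a3, Plpp2 and the Wnt ligand gene Wnt7b. In clone 4 Wnt7b had 4.96 and 2.87 CPM at 0h, 8.7 and 6.81 at 2h, 35.6 and 17.9 at 4h and 11.7 and 13.5 at rev. In clone 8 Wnt7b had 3.41 and 1.17 CPM at 0h, 3.02 and 1.3 at 2h, 2.41 and 3.6 at 4h and 3.88 and 7.56 at rev. The rev libraries of each clone lay above its 0h libraries. The count of 6 became 0 without either 0h library of clone 4 or without rev library 2 of clone 4, 1 without rev library 1 of clone 4 or rev library 2 of clone 8, and 2 without rev library 1 of clone 8. Against 2h, 0 late genes were called higher at rev (0.769% of all tested genes), with 8 at an unadjusted p under 0.05 and 0 by DESeq2. Slc7a7, an amino acid transporter gene, was called lower. In clone 4 Slc7a7 had 20.4 and 15.996 CPM at 0h, 35.1 and 22.5 at 2h, 67.7 and 69.5 at 4h and 14.9 and 9.51 at rev, and in clone 8 it had 13.9 and 19.9 CPM at 0h, 20.2 and 16.8 at 2h, 28.9 and 25.2 at 4h and 9.31 and 10.99 at rev.

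Among genes with at least 50 mean counts at 4h, the 4 largest changes from 4h to rev on log2(CPM + 1) were those of Ptprn, Akr1b8, Exoc3l and Fam167a. For Ptprn the change was -3.11 ± 0.55 (SE; edgeR adjusted p = 0.00125), for Exoc3l -2.43 ± 0.33 (SE; edgeR adjusted p = 0.000108) and for Fam167a -2.39 ± 0.43 (SE; edgeR adjusted p = 0.00142). Akr1b8 (chr6:34354119-34368463, plus strand) encodes an aldo-keto reductase. In clone 4 Akr1b8 had 13.2 and 15.2 CPM at 0h, 5.02 and 5.11 at 2h, 77.8 and 50.3 at 4h and 5.86 and 5.25 at rev. In clone 8 Akr1b8 had 4.26 and 6.26 CPM at 0h, 4.44 and 3.89 at 2h, 5.88 and 7.2 at 4h and 3.1 and 5.84 at rev. It stood below its 0h values at both 2h and rev in clone 4, so that 4h was a lone peak. The change from 4h to rev was -2.57 ± 0.45 (SE; edgeR adjusted p = 0.0012) and the clone difference -1.88 ± 0.45 (SE; edgeR adjusted p = 0.00745).

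Spsb1, Perp, Rnf165 and Col7a1 had the smallest differences of rev from 4h on log2(CPM + 1) among the same genes, an order that differs from that of the fitted changes given here, and none of the 4 was called. Spsb1 (chr4:149896283-149955043, minus strand), an adaptor of a ubiquitin ligase, had 12.1 and 3.69 CPM at 0h, 6.35 and 9.87 at 2h, 32.8 and 25.8 at 4h and 19.9 and 17.3 at rev in clone 4. In clone 8 Spsb1 had 22.4 and 26.2 CPM at 0h, 23.4 and 25.3 at 2h, 20.3 and 21.6 at 4h and 31.8 and 38.1 at rev. In clone 8 rev was the highest group. Over both clones the change was 0.02 ± 0.32 (SE; edgeR adjusted p = 0.977), whose sign turned with DESeq2 and with some libraries left out. The clone difference at 4h was -2.24 ± 0.38 (SE; edgeR adjusted p = 0.000161).

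Perp (chr10:18845020-18857073, plus strand), a desmosome protein, had 9.91 and 10.7 CPM at 0h, 6.69 and 8.85 at 2h, 36.3 and 31.1 at 4h and 13.5 and 13.3 at rev in clone 4. In clone 8 Perp had 11.4 and 8.997 CPM at 0h, 14.9 and 16.3 at 2h, 13.6 and 9.6 at 4h and 17.1 and 19.9 at rev. Clone 4 dropped back towards 0h and clone 8 stood highest at rev, which left a change of -0.48 ± 0.33 (SE; edgeR adjusted p = 0.388). Its clone difference was -1.52 ± 0.36 (SE; edgeR adjusted p = 0.00688).

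Rnf165 (chr18:77456110-77565161, minus strand), a ubiquitin ligase of BMP signalling, had 22.6 and 25.02 CPM at 0h, 25.4 and 22.5 at 2h, 77.1 and 57.5 at 4h and 38.95 and 34.5 at rev in clone 4. In clone 8 Rnf165 had 18.5 and 16.8 CPM at 0h, 13.7 and 12.2 at 2h, 24.3 and 19.997 at 4h and 25.6 and 16.1 at rev. In clone 4 the rev libraries lay between 0h and 4h. The change from 4h to rev was -0.60 ± 0.19 (SE; edgeR adjusted p = 0.0545) and the clone difference -1.19 ± 0.29 (SE; edgeR adjusted p = 0.00892). For Col7a1 the change at rev was -0.89 ± 0.45 (SE; edgeR adjusted p = 0.227).

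By role, the late genes included matrix, adhesion, signalling and transcription genes; the roles were assigned after the values had been seen and are a description. The counts below are to be read against 82 of 133 (61.65%) over all late genes, and no role was tested against the others. Of 8 genes for extracellular matrix and its modification, 5 were called for a smaller change in clone 8, and the median difference of 4h from 0h was 2.07 in clone 4 and 0.41 in clone 8. Timp1 (chrX:20870166-20874735, plus strand), an inhibitor of matrix metalloproteinases, had 26.4 and 25.02 CPM at 0h, 34.8 and 27.6 at 2h, 97.5 and 84.002 at 4h and 31.04 and 27.5 at rev in clone 4. In clone 8 Timp1 had 19.9 and 15.6 CPM at 0h, 21.8 and 18.5 at 2h, 21.9 and 21.997 at 4h and 21.7 and 26.8 at rev. Clone 8 stayed within 15.6 to 26.8 CPM, and the clone difference was -1.56 ± 0.26 (SE; edgeR adjusted p = 0.00014). Lamb1, a laminin chain gene, had 60.6 and 56.6 CPM at 0h and 219 and 189 at 4h in clone 4 and 189 and 163 CPM at 0h and 159 and 144 at 4h in clone 8. Its clones stood in opposite order before and after induction, with a clone difference of -2.04 ± 0.16 (SE; edgeR adjusted p = 1.11e-10).

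Among 11 adhesion and cytoskeleton genes, 8 were called for the clone difference and the medians were 1.62 in clone 4 and 0.39 in clone 8. Vim (chr2:13573927-13582826, plus strand), among them, encodes the intermediate filament protein of mesenchymal cells. In clone 4 Vim had 108 and 148 CPM at 0h, 142 and 138 at 2h, 569.96 and 406 at 4h and 161 and 167 at rev. In clone 8 Vim had 105 and 115 CPM at 0h, 136 and 138 at 2h, 144 and 141 at 4h and 125 and 128 at rev. The 4h libraries of clone 4 stood above every other library, and the clone difference was -1.55 ± 0.19 (SE; edgeR adjusted p = 6.25e-07).

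S100a10 (chr3:93555080-93564643, plus strand), a partner of annexin at the membrane, had 20.9 and 22.1 CPM at 0h, 29.1 and 22.5 at 2h, 89.9 and 89.95 at 4h and 29.3 and 30.02 at rev in clone 4. In clone 8 S100a10 had 25.8 and 26.2 CPM at 0h, 29.03 and 34.04 at 2h, 35.8 and 25.6 at 4h and 26.4 and 34.01 at rev. Its clone difference was -1.79 ± 0.26 (SE; edgeR adjusted p = 1.14e-05). Cdh2 (chr18:16588877-16809246, minus strand), which encodes N-cadherin, had 8.26 and 11.1 CPM at 0h, 6.35 and 4.43 at 2h, 31.5 and 24.5 at 4h and 12.01 and 10.8 at rev in clone 4. In clone 8 Cdh2 had 6.25 and 7.43 CPM at 0h, 7.66 and 9.81 at 2h, 10.2 and 15.2 at 4h and 10.1 and 8.59 at rev. The 4h libraries were the highest in each clone, and the clone difference did not pass the threshold, at -0.68 ± 0.42 (SE; edgeR adjusted p = 0.456).

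Of 15 genes for transcription and chromatin, 10 were called for the clone difference, with medians of 1.87 and 0.70. Pou3f1 (chr4:124656807-124660655, plus strand), a POU factor of formative and primed pluripotent cells, had 7.16 and 6.56 CPM at 0h, 10.7 and 9.87 at 2h, 44.2 and 30.4 at 4h and 8.2 and 5.25 at rev in clone 4. In clone 8 Pou3f1 had 9.94 and 13.7 CPM at 0h, 15.1 and 12.03 at 2h, 14.4 and 11.2 at 4h and 13.96 and 13.1 at rev. Only clone 4 separated 4h from the other groups, and the clone difference was -2.33 ± 0.40 (SE; edgeR adjusted p = 0.000184).

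Sox4 (chr13:28948919-28953713, minus strand), an SRY-related factor, had 5.51 and 1.64 CPM at 0h, 1.34 and 1.7 at 2h, 41.5 and 20.5 at 4h and 4.39 and 4.003 at rev in clone 4. In clone 8 Sox4 had 7.38 and 7.43 CPM at 0h, 9.68 and 6.85 at 2h, 8.29 and 8.4 at 4h and 9.31 and 9.28 at rev. Its clone difference was -3.14 ± 0.55 (SE; edgeR adjusted p = 0.000234). Sox4 shares 54.6% of its exon length with an overlapping annotated gene, so its counts are uncertain.

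Lef1 (chr3:131110471-131224356, plus strand), a factor of the Wnt pathway, had 8.81 and 7.38 CPM at 0h, 12.04 and 9.53 at 2h, 15.2 and 13.9 at 4h and 7.91 and 7.005 at rev in clone 4. In clone 8 Lef1 had 2.27 and 3.52 CPM at 0h, 1.41 and 0.925 at 2h, 4.28 and 6.4 at 4h and 2.33 and 2.06 at rev. Both clones stood highest at 4h, from different levels at 0h, and the clone difference of 4h against 0h was -0.0095 (edgeR adjusted p of 1.00). Tead4, a factor of the Hippo pathway, had 34.1 and 33.2 CPM at 0h and 131 and 109 at 4h in clone 4 and 82.6 and 76.3 CPM at 0h and 103 and 111 at 4h in clone 8. Clone 8 started at the higher level, and its clone difference was -1.44 ± 0.19 (SE; edgeR adjusted p = 1.88e-06).

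Secreted ligands and guidance genes numbered 6 (Tgfb1, Wnt7b, Vgf, Sema3e, Sema5b and Sema6a), and all 6 were called for the clone difference. Their medians were 2.53 in clone 4 and 0.11 in clone 8, and at rev clone 4 still stood a median of 1.44 above 0h. Sema6a, a transmembrane semaphorin gene, had 2.75 and 3.69 CPM at 0h and 41.1 and 21.8 at 4h in clone 4 and 4.83 and 3.13 CPM at 0h and 2.14 and 1.9997 at 4h in clone 8. Among 6 cell-surface receptor genes, 2 were called for the clone difference, Spn and F2rl1. All 6 were called lower at rev than at 4h, as were 81 of 129 late genes tested (62.79%), in a comparison that the rule favours. F2rl1 (chr13:95511732-95525227, minus strand), a receptor activated by proteases, had 47.4 and 38.97 CPM at 0h, 70.9 and 56.2 at 2h, 144 and 134 at 4h and 62.1 and 74.3 at rev in clone 4. In clone 8 F2rl1 had 46 and 52.02 CPM at 0h, 39.9 and 42.9 at 2h, 63.4 and 59.99 at 4h and 32.6 and 30.6 at rev. The 4h libraries were the highest of each clone, and the clone difference was -1.37 ± 0.20 (SE; edgeR adjusted p = 1.91e-05).

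Signalling regulators with enzyme or adaptor roles numbered 12, of which 10 were called for the clone difference, with medians of 1.96 and 0.23. Trib1 (chr15:59648350-59657099, plus strand), a pseudokinase that brings targets to a ubiquitin ligase, had 21.5 and 15.996 CPM at 0h, 14.05 and 17.4 at 2h, 62.9 and 56.2 at 4h and 7.91 and 15.3 at rev in clone 4. In clone 8 Trib1 had 28.1 and 37.2 CPM at 0h, 39.9 and 34.4 at 2h, 42.8 and 40.4 at 4h and 17.1 and 18.2 at rev. At rev Trib1 was below its 0h values in each clone, with a change from 4h of -1.82 ± 0.28 (SE; edgeR adjusted p = 0.000337) and a clone difference of -1.34 ± 0.29 (SE; edgeR adjusted p = 0.00256). Card10, a scaffold of NF-kappaB signalling, had 38.5 and 31.99 CPM at 0h and 172 and 116 at 4h in clone 4 and 22.1 and 25.04 CPM at 0h and 20.6 and 17.2 at 4h in clone 8. Socs5, a suppressor of cytokine signalling, had 9.36 and 7.38 CPM at 0h and 78.8 and 55.6 at 4h in clone 4 and 12.5 and 13.3 CPM at 0h and 13.1 and 14.8 at 4h in clone 8. In clone 8 neither stood higher at 4h beyond the spread of its libraries.

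Small GTPase, phosphoinositide and vesicle traffic genes numbered 10, with 7 called for the clone difference and medians of 2.71 and 0.33. The 6 genes of neuronal vesicles and synapses had medians of 1.93 and -0.03, and 4 were called. Shank3, a synaptic scaffold and a gene with a promoter printed above, had 18.7 and 17.2 CPM at 0h and 91.2 and 62.8 at 4h in clone 4 and 20.7 and 18.8 CPM at 0h and 20.6 and 19.997 at 4h in clone 8. Its relative Shank1 had 12.7 and 13.9 CPM at 0h and 52.9 and 47.6 at 4h in clone 4 and 12.2 and 11.7 CPM at 0h and 7.22 and 11.6 at 4h in clone 8. For both, only clone 4 stood higher at 4h. The 5 membrane transporter genes had medians of 1.94 and 0.62 with 4 called. Slc29a1, a nucleoside transporter with a printed promoter, had 67.7 and 45.5 CPM at 0h and 154 and 206 at 4h in clone 4 and 115 and 102 CPM at 0h and 181 and 170.4 at 4h in clone 8. It stood higher at 4h in each clone, and its clone difference was -0.98 ± 0.20 (SE; edgeR adjusted p = 0.00132).

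The other printed promoters belong to genes of low level. Polm, a DNA polymerase of end joining, had 12.7 and 11.5 CPM at 0h and 38.4 and 34.4 at 4h in clone 4 and 14.5 and 17.6 CPM at 0h and 20.3 and 18.8 at 4h in clone 8. Fetub, a cystatin-family protein, had 8.81 and 8.2 CPM at 0h and 27.7 and 23.8 at 4h in clone 4 and 5.96 and 9.78 CPM at 0h and 9.09 and 8.4 at 4h in clone 8. All 5 genes with EGR letters had clone differences below 0, as did 127 of all 133 late genes, and that of Fetub was -1.42 ± 0.44 (SE; edgeR adjusted p = 0.0486).

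Retinoid genes numbered 4, among them Rarg, Cyp26a1 and Rdh5, and 1, Rarg, was called. Cyp26a1, the enzyme that breaks down retinoic acid, had 1.65 and 2.05 CPM at 0h, 1.34 and 2.38 at 2h, 37.7 and 13.2 at 4h and 2.05 and 2.001 at rev in clone 4. In clone 8 Cyp26a1 had 0.284 and 0.782 CPM at 0h, 1.61 and 1.11 at 2h, 1.34 and 0 at 4h and 0 and 2.4 at rev. Its counts in clone 8 at 0h were at most 2, and the 4h libraries of clone 4 were the highest.

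**Figure D5:**
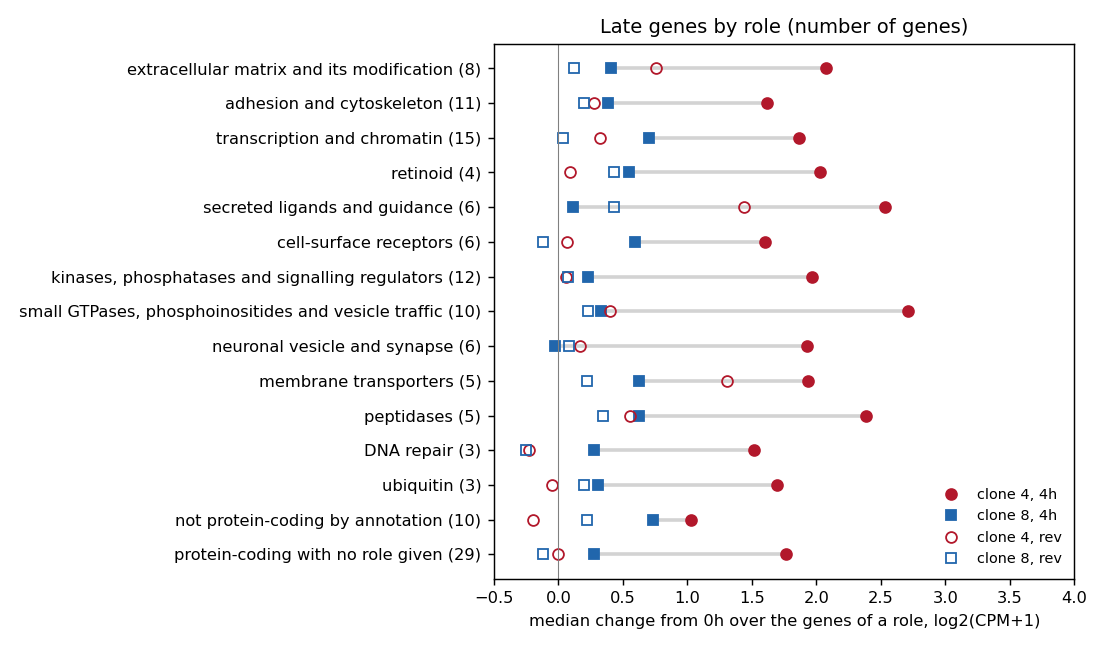
Median difference from 0h on log2(CPM + 1) over the late genes of each role, at 4h (filled) and rev (open), for clone 4 (circles) and clone 8 (squares); the number of genes is in brackets. In each role the 4h median of clone 4 lies above that of clone 8, by 2.53 against 0.11 for secreted ligands and guidance and 1.03 against 0.73 for genes not protein-coding.

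The 10 late genes not annotated as protein-coding had medians of 1.03 in clone 4 and 0.73 in clone 8, and 1 was called for the clone difference; they were not tested against the other late genes. The lncRNA gene Pvt1, a neighbour of Myc, had 4.4 and 3.28 CPM at 0h and 5.88 and 11.2 at 4h in clone 4 and 7.1 and 3.91 CPM at 0h and 16.05 and 12.8 at 4h in clone 8. It was among 5 late genes with a larger difference of 4h from 0h in clone 8, with Tnfrsf25, Gm46332, Gm20548 and Gm22513. None was called for the change from 0h to 4h. Libraries of the small RNA genes Gm22513 and Rny1 disagreed within a clone. At 4h in clone 4 Gm22513 had 7.26 and 42.99 CPM and Rny1 had 4.84 and 35.1 CPM. In that clone their late pattern lay within the spread of libraries. In clone 8 Gm22513 had 9.09 and 23.1 CPM at 0h, 1.81 and 5.37 at 2h and 32.9 and 40.4 at 4h. Rny1 had 9.65 and 29.3 CPM at 0h, 2.62 and 6.66 at 2h and 27.02 and 31.2 at 4h in clone 8. Both were called for a larger change from 2h to 4h in clone 8.

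The listed genes of related programmes, written with earlier results known, gave the setting. Of 27 tested genes on a list of ERK feedback and immediate-early genes, 21 were called higher at 2h than at 0h (9.49% of all tested genes). At 4h 19 were called higher than at 0h. None of the listed genes is a late gene, which the rule's limit at 2h largely set in advance. The late gene Spred3 is not on this list, which holds Spred1 and Spred2. Of 27 on the list of delayed growth-factor genes, 15 were called higher at 4h than at 0h and 4 lower (5.56% of all tested genes), with a median of 0.58; late genes among them are Emp1, Hmga2, Timp1 and Trib1. Of 15 formative and primed genes, 4 were called higher and 1 lower with a median of 0.44. Dnmt3l, Lef1, Pou3f1 and Sox4 are the late genes of that list. Of 10 genes for mesenchymal transition and mesendoderm, 6 were called higher and 2 lower. For 8 regulated-secretion genes, the counts were 2 higher and 1 lower. Of 12 naive pluripotency genes, none of them late, 2 were called higher and 4 lower. On the lists of lipid signalling, receptors, cytoskeleton and lineage factors, 3 of 15, 4 of 22, 7 of 25 and 5 of 15 were called higher (7.35% of all tested genes), and 2, 5, 1 and 1 were called lower. The list counts include the late genes, which the rule made high at 4h.

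Emp1 (chr6:135362545-135383173, plus strand), a tetraspan membrane protein, is a late gene on the delayed list whose clones moved in opposite ways. In clone 4 Emp1 had 3.85 and 2.87 CPM at 0h, 1.34 and 1.36 at 2h, 24.5 and 13.2 at 4h and 2.05 and 2.25 at rev. In clone 8 Emp1 had 14.8 and 14.5 CPM at 0h, 25.4 and 24.4 at 2h, 9.63 and 9.999 at 4h and 22.5 and 26.1 at rev. Clone 8 was lowest at 4h and clone 4 was highest there. The clone difference was -3.19 ± 0.45 (SE; edgeR adjusted p = 8.86e-06).

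The late genes were low-level genes. Their median log2(CPM + 1) at 0h was 3.05, against 5.10 over all 11924 genes, and their median total was 524 counts against 1578. CPM is not per length; the median exon length was 4.25 kb against 4.48 kb. Their median gene span was 20.4 kb, against 23.2 kb over all, and 92.5% were protein-coding, against 93.6%. Chromosome 15 held 12 of them (9.02%, against 3.77% of all genes) and chromosome 6 held 11 (8.27%, against 4.78%). No test was made of these shares. Within 1000 kb of another late gene lay 19 neighbouring pairs, the closest Polm and Aebp1, 23.9 kb apart on chromosome 11. Rtl1, Gm26945 and Mirg lie side by side on chromosome 12, in the imprinted cluster that also holds Dlk1 and Meg3. In clone 4 Rtl1 had 12.7 and 23.4 CPM at 0h, 26.1 and 9.53 at 2h, 68.4 and 38.4 at 4h and 16.1 and 17.8 at rev. In clone 8 Rtl1 had 9.37 and 8.21 CPM at 0h, 6.25 and 4.26 at 2h, 10.2 and 9.2 at 4h and 3.88 and 8.93 at rev. Mirg had 24.2 and 30.4 CPM at 0h, 32.1 and 15.3 at 2h, 88.1 and 48.9 at 4h and 21.4 and 22.8 at rev in clone 4, and in clone 8 it had 18.7 and 13.3 CPM at 0h, 10.9 and 6.66 at 2h, 17.1 and 19.997 at 4h and 9.31 and 12.4 at rev. The levels of Gm26945 were 3.85 and 6.56 CPM at 0h and 10.4 and 10.6 at 4h in clone 4 and 2.84 and 0.782 CPM at 0h and 2.41 and 3.2 at 4h in clone 8. Both 4h libraries of clone 4 lay above its other libraries for each of these genes. In clone 8 Mirg was called higher at 4h than at 2h by 1.08 log2 units (edgeR adjusted p = 0.00698), and its 0h and 4h values overlapped. The clone difference did not pass the threshold for any of the 3 genes. Exon sequence was shared with another annotated gene by 44 late genes, 36 of them with a gene on the opposite strand; since strand use in the counting is not known, reads of the pairs cannot be told apart. Gm49342 shared 100% of its exon length, so its counts are uncertain.

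Membership near the limits was narrow. For 4h minus 0h, P2rx5, Parvb and Gm26945 lay just inside with 0.7045, 0.7091 and 0.7268, and Rin1, Sult4a1 and Sept1 just outside with 0.6931, 0.6986 and 0.6989. For 4h minus 2h, Sema3e, Phf6 and Lama4 were inside with 0.7004, 0.7034 and 0.7113, and Enpp3, 4930548H24Rik and Rsl1 outside with 0.6919, 0.6954 and 0.6962. For 2h minus 0h, Tgfb1, Mkrn1 and Ap1s3 were inside with 0.488, 0.4882 and 0.4978, and N4bp3, Plec and Lin28a outside with 0.504, 0.5051 and 0.5087. The number of late genes was 72 or 85 without 4h library 1 or 2 of clone 4, and 203 or 215 without 4h library 1 or 2 of clone 8.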

How the data were processed

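RNA was measured in 16 libraries of 4 groups and 2 clones. The deposited file holds raw counts, as whole numbers without normalization, over 52636 Ensembl IDs. The submitters' processing notes name STAR 2.5.3a, bcl2fastq 2.19.1 and the build mm10; the counting program, annotation and strand setting are not given in the sources used here. Symbols were matched by gene ID (52403 matched, 233 did not), with positions from GENCODE M21. Groups came from the sample titles. The members, gene lists and roles were chosen with earlier results of these data known, as were tests and alternatives.

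CPM was computed from the counts as stated in the report, with a pseudocount of 1. Tests used edgeR 4.0.16 (R 4.3.3) with filterByExpr (minimum count 10, total 15), TMM scaling and quasi-likelihood tests. They ran over all 16 libraries with clone as a covariate, over 8 group and clone combinations for differences between clones, or within 1 clone. Where the rule chose genes in 1 clone alone, the minimum of 160 counts became 80. P-values were adjusted by Benjamini-Hochberg over every gene in a fit, and a standard error is the log2 change over the root of F. DESeq2 1.42.0, other scalings, thresholds and left-out libraries were alternatives. The fits were tested on simulated counts. The 2 libraries of a clone and group never matched within sampling noise (chi-square over its degrees of freedom from 1.32 to 4.49), so no pair was merged into 1 sample; whether their spread is technical was not tested.

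Named genes were members on the gene lists, whatever their counts, and members with at least 50 mean counts at 4h and no predicted-gene name. The latter were the 8 with the largest difference of 4h from 0h and the 6 largest and 4 smallest called clone differences. They also included the 4 largest and 4 smallest changes at rev. Others were chosen after their values were seen.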

Additional observations from a re-analysis of the deposited data

Results flagged for a closer look

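By edgeR's test (adjusted p under 0.05) the change from 0h to 4h was smaller in clone 8 for 82 late genes (3.48% of all genes). It was larger for 0 (2.09%). That from 2h to 4h was smaller in clone 8 for 87 (6.58%) and larger for 5, whose share over all genes is not given here. That from 0h to 2h differed for 15 (7.31%) and that from 4h to rev for 80 (12.7%). These tests share libraries with the rule, which favours genes high in clone 4, so the counts describe the chosen genes. Among named genes the clone 8 change minus the clone 4 change, in log2 units from 0h to 4h, was -4.96 for Vgf, -4.26 for Col7a1, -3.72 for Ptprn, -3.58 for Heg1, -3.57 for Synj2, -3.31 for Nptxr, -3.26 for Fam167a, -3.19 for Emp1 and -3.14 for Sox4. It was -2.52 for Jade2, -2.33 for Pou3f1, -2.24 for Spsb1, -1.94 for Ppm1j, -1.88 for Akr1b8, -1.82 for Tgfb1, -1.79 for S100a10, -1.66 for Zfp423, -1.56 for Timp1, -1.55 for Exoc3l, -1.55 for Vim and -1.52 for Perp. The smaller ones were -1.37 for F2rl1, -1.34 for Trib1, -1.19 for Rnf165, -0.80 for Rarg, -0.69 for Utf1, -0.68 for Dnmt3l and -0.55 for Itpk1.

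In 3 groups of 4 libraries 1 library lay far from the others on log2(CPM + 1), by Dixon's criterion (0.829 for 4 values), which flags about 1 group in 20 by chance. Col7a1 at 0h was low in clone 4 library 2 (2.10), Heg1 at 0h was high in clone 8 library 1 (4.36) and Nptxr at rev was low in clone 4 library 1 (3.005).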

How the results depend on the processing

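Direction and side of the threshold were kept in most alternatives. Of the counts recomputed, 334 stayed within 1.5 times the reported value and 51 did not; of the values of single genes, 306 kept their call, 28 lost it, 4 gained it and 4 reversed. The number of late genes (133) became 267 with a minimum of 16 counts, 58 with a rise of at least 1, 352 in clone 4 alone and 31 in clone 8 alone, and lay between 72 and 215 with 1 library left out. At an adjusted p under 0.01 the counts of late genes were 61 for 4h above 0h, 51 for 4h above 2h, 48 for rev below 4h, 0 for rev above 0h and 16 for the 0h level. Without the clone covariate they were 43, 21, 21 and 0 for the first 4 of these. DESeq2 gave 16 for the 0h level, and library totals outside the abundant features gave 3 for rev above 0h. For genes chosen in clone 4 and measured in clone 8, an adjusted p under 0.01 gave 26, 21 and 14 and DESeq2 gave 22, 15 and 13, for 4h above 0h, 4h above 2h and rev below 4h. The shares over all tested genes under these settings are not given here, so these counts cannot be set against them. The cause of these shifts was not tested, beyond the stricter threshold itself.

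With 1 library left out, counts ran from 59 to 121 for 4h above 0h, 51 to 118 for 4h above 2h, 44 to 100 for rev below 4h, 0 to 9 for rev above 0h and 0 to 1 for rev above 2h. They ran from 52 to 84 for a smaller and 0 to 1 for a larger 4h against 0h change in clone 8, from 8 to 17 for the change at 2h and 14 to 27 for the 0h level. For genes chosen in clone 4 they ran from 22 to 49, 15 to 50 and 12 to 34, and the matching shares over all tested genes are not given. Where 1 library remained in a clone and group, it was assumed to vary like the others. The libraries behind the low ends are named in the report beside most counts. Those behind the high ends are not named. The change of Spsb1 from 4h to rev reversed with DESeq2 (-0.0773) and ran from -0.263 to 0.482 with 1 library left out.

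Numbers 1 and 2 recur in each clone and group but did not pair the samples: the 12 correlations of library differences between groups of a clone ran from -0.324 to 0.261, with 3 above 0.1. A fit with clone and number as a replicate block called 91, 80, 63, 2 and 0 late genes for the 5 comparisons between groups and 73 for a smaller 4h against 0h change in clone 8. The late genes had a median total of 524 counts, and differences between levels under the floor of 3 counts, 0.555 to 2.33 CPM, were not detectable at this depth.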
